A study of Mus with 17 samples.

Results

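The smooth muscle contractile transcripts are the 7 transcripts of Acta2, Tagln, Myh11, Cnn1, Des, Mylk and Myl9, chosen by their Ensembl identifiers as members of the contractile machinery; the choice uses no measured value. All 7 were listed in each of the 17 files and passed the filter on low values, among 39614 transcripts listed in every file and 29983 that passed. The samples were abdominal aortas of wild-type C57BL/6 mice after 42 days of treatment. Control mice received saline and double distilled water (n = 5). Mice of the AngII group received angiotensin II, the pressor peptide of the renin-angiotensin system, at 500 ng/kg/min with double distilled water (n = 6). Mice of the neferine group received angiotensin II at the same rate together with neferine, an alkaloid of lotus seed embryos, at 1 mg/kg/day (n = 6). The labels give no age or sex and do not say whether a sample is 1 animal, so the p-values only weigh differences against the spread of these samples, which may be technical.

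A vascular smooth muscle cell shortens when myosin filaments pull on actin filaments. Calcium switches the process on through myosin light chain kinase, which phosphorylates the regulatory light chain and lets the myosin head cycle on actin. Cells of the healthy aortic media express the genes of this machinery strongly, and smooth muscle cells that turn to proliferation and matrix synthesis are known to express less of them. The transcription factor SRF with its coactivator myocardin drives many of these genes.

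The deposited values are a linear abundance signal per transcript in a unit that the files do not name. It is not known whether the signal is per length, so levels are compared between libraries and not between genes. The defining smooth muscle markers Acta2, Tagln, Myh11 and Cnn1 were above 1 in all 17 libraries, as were Des and Myl9. Mylk reached 1 in 6 libraries. Of all transcripts 9253 reached 1 in every library, so passing this floor is not particular to these markers. In a sample of whole aorta, fewer smooth muscle cells and less RNA per cell cannot be told apart. Each identifier is 1 transcript, and the signal of other transcripts of the same gene was not used here. All neferine files share a transcript list of their own, and what comes with that list cannot be told apart from what comes with neferine.

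Over all transcripts, 3 libraries stood apart, AngII replicate 6 by its correlation and zeros and the other 2 by their top 10 transcripts. AngII replicate 6 correlated least with the others (median Spearman rho 0.511, against 0.613 to 0.674 for the remaining 16), and it had 16.4% of the shared transcripts at 0, against 4.39% to 10.1%. The top 10 transcripts held 30.9% of the signal in AngII replicate 2 and 28.9% in neferine replicate 1, against 10.5% to 21.5% elsewhere. In correlation and zeros AngII replicate 2, at 0.635 and 5.73%, lay within the ranges given. Neferine replicate 1, at 0.613 and 10.1%, lay at their ends. Because transcripts could not be matched to gene names, markers of other cell types could not be identified among them, and the part of those cells in the member values was not tested. The values that these libraries move by the most are given with and without them.

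Smooth muscle α-actin, encoded by Acta2 (ENSMUST00000039631), forms the thin filaments of the contractile apparatus. Its signal in Control replicates 1, 2, 4, 5 and 6 was 6183, 4671, 6454, 3831 and 4802. In AngII it ranged from 1216 to 6070 with a median of 4259, and with neferine from 2233 to 4561 with a median of 3399. The means were 5188 ± 1101 (SD, n = 5), 4148 ± 1896 (SD, n = 6) and 3480 ± 855.7 (SD, n = 6), in the order Control, AngII and neferine. The ranges of all 3 groups overlapped, and the low end of AngII was replicate 2 alone.

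Transgelin, the product of Tagln (ENSMUST00000034590), is an actin-binding protein of the calponin family. Control libraries held 3092, 2337, 3381, 3034 and 2615. The AngII libraries ranged from 1185 to 4398 with a median of 3440 and the neferine libraries from 2053 to 3422 with a median of 2562. Its means in Control, AngII and neferine were 2892 ± 413.8 (SD, n = 5), 3240 ± 1118 (SD, n = 6) and 2624 ± 505 (SD, n = 6). AngII replicate 6 was the highest and AngII replicate 2 the lowest of all 17 libraries, so the AngII group spanned both other groups.

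Calponin, encoded by Cnn1 (ENSMUST00000001384), binds actin and restrains the myosin ATPase. In Control its signal was 503, 343, 570, 408 and 398. It ranged from 119.7 to 764 in AngII with a median of 459, and from 179 to 586 with neferine with a median of 329. The means were 445 ± 90.8 (SD, n = 5), 442 ± 242 (SD, n = 6) and 378 ± 152 (SD, n = 6). Control was the narrowest group, with a coefficient of variation of 20.4% against 54.8% in AngII and 40.4% with neferine.

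Myh11 (ENSMUST00000090287) encodes the smooth muscle myosin heavy chain, the motor of the thick filament, and is spliced into several forms. Control values were 111.8, 82.2, 26.1, 24.6 and 16.2. AngII values ranged from 18.0 to 125.6 with a median of 30.0, and neferine values from 21.8 to 67.2 with a median of 33.0. The values were uneven within groups. Control replicates 1 and 2, AngII replicate 6 and neferine replicate 5 held 67.2 or more, and the other 13 libraries lay between 16.2 and 39.0. Each group thus had 1 or 2 high libraries, and the group means of 52.2 ± 42.4 (SD, n = 5), 42.7 ± 41.1 (SD, n = 6) and 36.8 ± 16.2 (SD, n = 6) follow them.

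The regulatory light chain of smooth muscle myosin, which the kinase phosphorylates, is encoded by Myl9 (ENSMUST00000088552). Its signal was 2856, 1186, 2941, 2377 and 2202 in Control. The range was 948 to 4922 in AngII, with a median of 2446, and 1303 to 2213 with neferine, with a median of 1672. The neferine libraries formed the narrowest group, with a mean of 1685 ± 298.9 (SD, n = 6). The mean of Control was 2312 ± 702.5 (SD, n = 5) and that of AngII 2482 ± 1388 (SD, n = 6). As for Tagln, AngII replicate 6 was the highest and AngII replicate 2 the lowest library.

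Mylk (ENSMUST00000023538), the gene of the myosin light chain kinase, makes long and short forms of the enzyme from different promoters. This transcript was either clearly present or near 0. It was listed at 0 in 9 libraries and at 0.367 and 0.0802 in neferine replicates 2 and 4. In the other 6 libraries it lay between 16.1 and 47.8. These 6 were Control replicates 1 and 2, at 39.0 and 47.8, AngII replicates 4 and 5, at 30.7 and 20.8, and neferine replicates 3 and 5, at 28.8 and 16.1. Each group therefore had 2 libraries with the transcript, and presence did not follow treatment. Since a value of exactly 0 may be an estimate that failed, no mean is given for this transcript. Among all tested transcripts 443, or 1.48%, were at 10 or more in at least 5 libraries and under 1 in at least 5 others, and Mylk was the single member among them.

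Desmin, the protein of Des (ENSMUST00000027409), is the muscle intermediate filament that links the contractile units and is also strong in skeletal and cardiac muscle. Control values were 31.6, 68.5, 75.3, 73.9 and 51.3. In AngII the signal ranged from 10.1 in replicate 2 to 332.7 in replicate 6, with a median of 96.2. With neferine 5 libraries lay between 46.6 and 58.0, and replicate 1 stood at 208.4. The means were 60.1 ± 18.6 (SD, n = 5), 123.5 ± 110.1 (SD, n = 6) and 78.1 ± 64.0 (SD, n = 6) in the same order of groups. Both high values, and the lowest, belonged to the 3 libraries that stood apart.

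**Figure D1:**
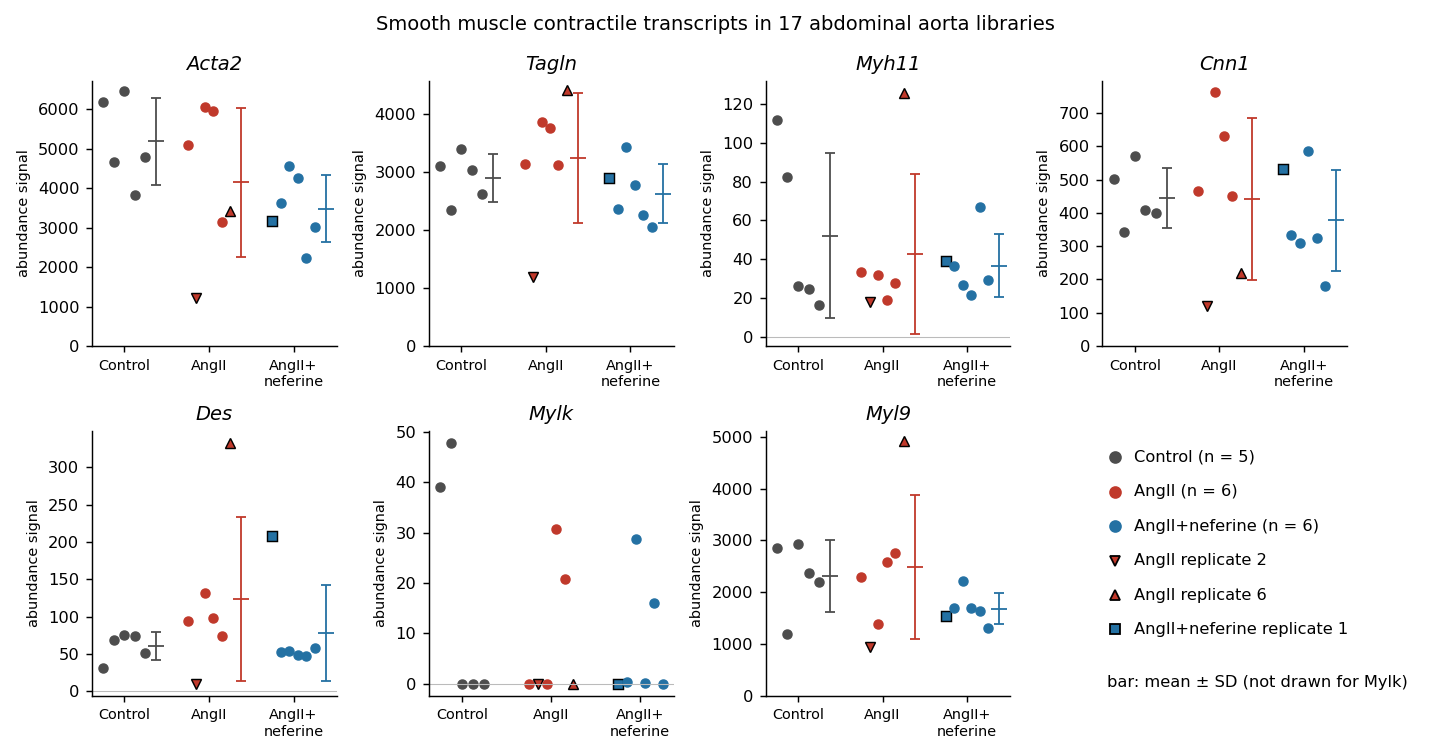
Abundance signal of each contractile transcript (vertical axes, linear, unit not named in the files) in the 5 Control, 6 AngII and 6 neferine libraries, 1 point per library, with the mean ± SD beside each group except for Mylk. The 3 libraries that stood apart have outlined symbols; AngII replicate 2 is the lowest library for Acta2, Tagln, Cnn1, Des and Myl9, and Mylk is near 0 in 11 of 17 libraries.

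The members' share of the summed signal averaged 2.60% ± 0.405 (SD, n = 5) for Control, 2.37% ± 0.887 (SD, n = 6) for AngII and 1.88% ± 0.427 (SD, n = 6) for neferine. Control libraries ranged from 2.22% to 3.03% and neferine libraries from 1.47% to 2.44%, so those groups overlapped. In AngII the share was 0.669% in replicate 2 and between 2.33% and 3.10% in the others. That library had the lowest signal of all 17 for 5 of the 7 members, and none of its members lay above the median over all libraries. After each library was scaled by the median of its ratios to a common reference profile, a factor that a few very high transcripts hardly move, Acta2 was still lowest there, at 1327 against 2059 or more in the other 16 libraries. AngII replicate 6 had the highest signal of all 17 for Tagln, Myh11, Des and Myl9, but its Acta2 of 3424 and Cnn1 of 219 lay below the medians of its group.

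**Figure D2:**
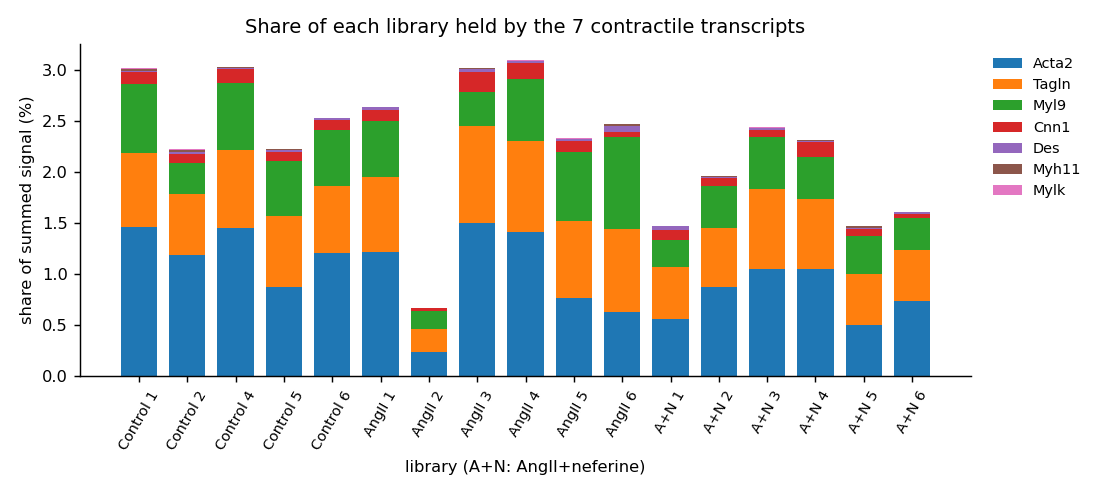
Share of the summed signal of each library (vertical axis, percent) held by the 7 contractile transcripts, stacked by transcript, for the 17 libraries in group order. AngII replicate 2 stands out at 0.669%, and the other 16 libraries lie between 1.47% and 3.10%.

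AngII was compared with Control to ask whether 42 days of angiotensin II altered the contractile transcripts. No member passed the test. On the log2(signal + 1) scale, differences of AngII from Control ranged from -0.61 for Mylk to 0.52 for Des, with 2 members higher, 5 lower and a median of -0.23, against a median of -0.03 over all tested transcripts. Mylk enters these counts and medians in every comparison, although its difference here rests on 2 libraries per group with the transcript. It was -0.84 with a pseudocount of 0.1 and -0.44 with 5. The next lowest member was Acta2. Acta2 differed by -0.48 ± 0.34 (SE; limma, adjusted p = 0.784), with a 95% interval from -1.20 to 0.25. Des differed by 0.52 ± 0.63 (SE; limma, adjusted p = 0.861), with an interval from -0.81 to 1.85. The interval of Tagln, from -0.50 to 0.64 around a difference of 0.07, was the narrowest of the 7.

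Calls were made on p-values adjusted by Benjamini-Hochberg over all tested transcripts, with a threshold of 0.05. With it 0 of 7 members and 0% of all 29983 transcripts were called between AngII and Control (limma). At an unadjusted p under 0.05, 0 of 7 members were counted, against 3.31% of all transcripts higher and 3.94% lower in AngII. The AngII and Control libraries overlapped for every member, while 0.807% of all transcripts had groups without overlap. The intervals leave room for sizeable differences in most members. For Mylk the interval ran from -3.64 to 2.41, since this transcript had a larger spread than 99.7% of those tested, and its value depends on the constant added before the logarithm.

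Single libraries moved several of these values. The median over members was 0.09 without AngII replicate 2, with 4 members higher and 3 lower, and 0.09 without Control replicate 1, with 5 higher and 2 lower. Without Control replicate 2 it was -0.0066, without Control replicate 4 it was -0.14 and without AngII replicate 4 it was -0.0998. Without all 3 libraries that stood apart it was 0.17, with 4 higher and 3 lower, so the sign of the median depends on which libraries are kept. Without AngII replicate 2, Acta2 differed by -0.16 ± 0.24 (SE; limma, adjusted p = 0.891). Without the same library, which held the lowest Des signal, Des differed by 1.11 ± 0.44 (SE; limma, unadjusted p = 0.0237, adjusted p = 0.655). In that fit 7.22% of all transcripts had an unadjusted p under 0.05. Without AngII replicate 6 Des differed by 0.12 ± 0.58 (SE; limma, adjusted p = 0.985). With AngII replicates 2 and 6 and neferine replicate 1 all left out, Des was 60.1 ± 18.6 (SD, n = 5) for Control and 99.6 ± 23.8 (SD, n = 4) for AngII. That difference of 0.76 ± 0.23 did not pass (SE; limma, unadjusted p = 0.00655, adjusted p = 0.497). It was the single member at an unadjusted p under 0.05 in that fit, where 7.45% of all transcripts were. Cnn1 differed by -0.23 ± 0.41 (SE) with all libraries and by 0.37 ± 0.28 (SE) without those 3 (limma, adjusted p = 0.909 and 0.795), and by 0.09 ± 0.34 (SE) without AngII replicate 2 alone (limma, adjusted p = 0.963).

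The neferine group was compared with AngII to ask whether the alkaloid altered these transcripts under the same infusion. Again no member was called. Differences of neferine from AngII ranged from -0.39 for Myl9 to 0.05 for Myh11, with 2 members higher, 5 lower and a median of -0.11, against a median of -0.0042 over all tested transcripts. The 2 higher were Myh11 and Mylk, at 0.05 and 0.02, and on the linear scale the mean of Myh11 was lower with neferine, as given above. Myl9 differed by -0.39 ± 0.33 (SE; limma, adjusted p = 0.953), with an interval from -1.07 to 0.30. For Des the difference was -0.33 ± 0.60 (SE; limma, adjusted p = 0.979), and for Acta2 it was -0.11 ± 0.33 (SE; limma, adjusted p = 0.987).

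Among all transcripts 0% were called between neferine and AngII, beside 0 of 7 members (limma). At an unadjusted p under 0.05 there were 0 of 7 members, against 2.90% of all transcripts higher and 2.31% lower with neferine. Without overlap between these groups were 0 of 7 members and 0.263% of all transcripts. This comparison also carries the difference between transcript lists named above.

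Without AngII replicates 2 and 6 and neferine replicate 1, Des was at 74.3 to 131.6 in the 4 remaining AngII libraries and at 46.6 to 58.0 in the 5 remaining neferine libraries, so the groups did not overlap, as for 2.87% of all transcripts. Its means were then 99.6 ± 23.8 (SD, n = 4) and 52.1 ± 4.42 (SD, n = 5), a difference of -0.90 ± 0.23 (SE; limma, unadjusted p = 0.00205, adjusted p = 0.377). Cnn1 averaged 578 ± 148 (SD, n = 4) for AngII and 347 ± 148 (SD, n = 5) for neferine, a difference of -0.80 ± 0.28 (SE; limma, unadjusted p = 0.0134, adjusted p = 0.575). Tagln was 3464 ± 401 (SD, n = 4) and 2569 ± 544 (SD, n = 5), a difference of -0.45 ± 0.15 (SE; limma, unadjusted p = 0.0122, adjusted p = 0.568). None of the 3 passed the adjustment, and 7.08% of all transcripts had an unadjusted p under 0.05 in that fit. With all libraries Tagln differed by -0.22 ± 0.26 (SE) and Cnn1 by -0.08 ± 0.39 (SE; limma, adjusted p = 0.963 and 0.995). The 3 libraries had been found apart in an earlier analysis of these files. Leaving out those 3 gave 0.28 ± 0.51 (SE) for Myh11, -0.51 ± 0.25 (SE) for Acta2 and -0.37 ± 0.27 (SE) for Myl9 (limma, adjusted p = 0.949, 0.723 and 0.838).

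In the same comparison, leaving out AngII replicate 2 alone put all 7 members lower with neferine, with a median of -0.43, against -0.02 over all tested transcripts. That library was the lowest of all 17 for 5 members, so leaving it out raises their AngII means. Tagln was then at -0.49 ± 0.15 (SE), Des at -0.92 ± 0.42 (SE) and Myl9 at -0.63 ± 0.28 (SE), each at an unadjusted p under 0.05, as were 7.12% of all transcripts (limma, adjusted p = 0.562, 0.688 and 0.683). Acta2 was at -0.43 ± 0.23 (SE), Cnn1 at -0.41 ± 0.32 (SE) and Myh11 at -0.12 ± 0.52 (SE; limma, adjusted p = 0.734, 0.830 and 0.979). Leaving out AngII replicate 6 alone gave 0.06 ± 0.56 (SE) for Des, -0.15 ± 0.29 (SE) for Myl9 and 0.43 ± 0.44 (SE) for Myh11 (limma, adjusted p = 0.995, 0.983 and 0.966), and the median of the members was -0.13. That median ranged from -0.43 to -0.08 when 1 library was left out at a time, and was -0.45 without the 3 libraries, with 1 member higher and 6 lower. It moved by over 1.5 times also without AngII replicate 1, at -0.21, and without neferine replicates 1, 3, 4 and 5, at -0.20, -0.28, -0.23 and -0.18.

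The neferine group was also compared with Control, to see what still differed from saline when neferine was given. No member was called. Acta2 had the smallest p of the members and differed by -0.59 ± 0.34 (SE; limma, unadjusted p = 0.106, adjusted p = 0.662), with an interval from -1.32 to 0.14. Of the 6 neferine libraries 4 lay below the lowest Control library, at 3831, and 2 lay within the Control range. AngII replicates 2, 5 and 6, at 1216, 3138 and 3424, lay below that Control library too. The share of all transcripts with such a pattern was not computed. Myl9 differed by -0.41 ± 0.34 (SE; limma, adjusted p = 0.782) and Cnn1 by -0.32 ± 0.41 (SE; limma, adjusted p = 0.869). Des was the only member with a higher mean on the log2 scale with neferine, by 0.19 ± 0.63 (SE; limma, adjusted p = 0.958), and without neferine replicate 1 the difference was -0.14 ± 0.61 (SE; limma, adjusted p = 0.985).

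Over all transcripts 0.0367% were called between neferine and Control, and 0 of 7 members (limma). At an unadjusted p under 0.05 the members again counted 0 of 7, against 4.23% of all transcripts higher and 4.52% lower with neferine. The groups did not overlap for 2.08% of all transcripts and for 0 of 7 members. The median difference of the members was -0.32, against -0.03 over all tested transcripts, with 6 members lower and 52.9% of all transcripts lower. Without Control replicate 1 it was -0.12, with 2 members higher and 5 lower, and without neferine replicate 6 it was -0.16, with 1 higher and 6 lower. Without Control replicate 2, 3 members were higher and 4 lower, with a median of -0.22. For Acta2 the exact two-sided permutation test of these groups gave an unadjusted p of 0.0216 and an adjusted p of 0.336. In that test 11.4% of all transcripts had an unadjusted p under 0.05. Without the 3 libraries that stood apart Acta2 differed by -0.57 ± 0.23 (SE; limma, unadjusted p = 0.0286, adjusted p = 0.374), where 11.1% of all transcripts had an unadjusted p under 0.05.

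The 3 comparisons share libraries, so their values for a member are not independent of each other. For Acta2 they were -0.48 for AngII against Control, -0.11 for neferine against AngII and -0.59 for neferine against Control. For Des the same differences were 0.52, -0.33 and 0.19, and for Myl9 they were -0.02, -0.39 and -0.41.

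**Figure D3:**
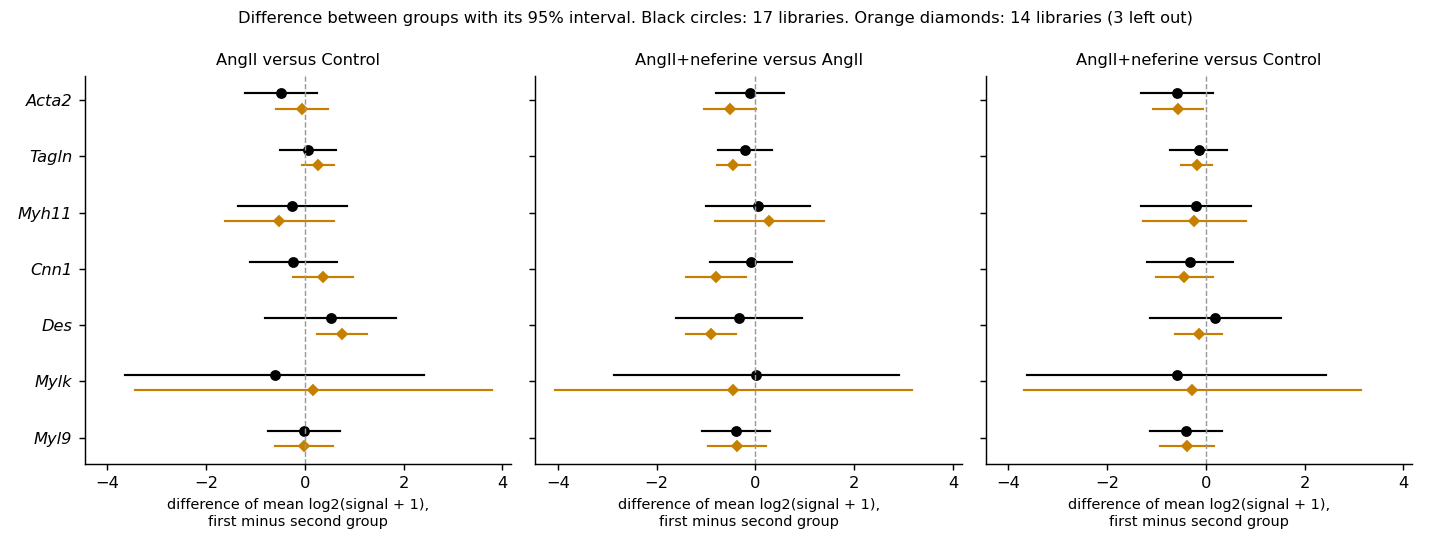
Difference between group means of log2(signal + 1) for each contractile transcript (horizontal axis, first group minus second), with its 95% interval from limma, in the 3 comparisons. Black circles use all 17 libraries and every black interval spans 0. Orange diamonds leave out AngII replicates 2 and 6 and neferine replicate 1, which hold the extremes of Des. There Des lies at 0.76 for AngII against Control and at -0.90 for neferine against AngII. Both of these orange intervals exclude 0, as do those of Tagln and Cnn1 for neferine against AngII and of Acta2 for neferine against Control. No member was called without the 3 libraries (limma, smallest adjusted p = 0.374).

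Within a library, the ratio of 1 member to another does not depend on the scale of that library. Tagln relative to Acta2, on the log2 scale, was -0.9997, -0.9992, -0.93, -0.34 and -0.88 in Control. In AngII it ranged from -0.70 to 0.36 with a median of -0.34, and with neferine from -0.62 to 0.01 with a median of -0.49. In 4 of the 5 Control libraries the ratio was thus below that of every AngII and neferine library, and Control replicate 5 lay among the others. These ratios were set out as a description and were not tested, and the share of all transcripts with such a pattern against Acta2 was not computed. Acta2 is the denominator, so a low Acta2 raises every such ratio. Acta2 itself differed from Control by -0.48 in AngII and by -0.59 with neferine, neither of them called.

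The other members were set against Acta2 in the same way. Cnn1 had medians of -3.59, -3.29 and -3.15 in Control, AngII and neferine, with ranges of -3.77 to -3.23, -3.97 to -2.80 and -4.08 to -2.58. Myl9 had medians of -1.13, -0.75 and -1.07, and the AngII libraries ran from -2.14 to 0.52. Des had medians of -6.42, -5.64 and -5.91. The highest Des ratios were -3.36 in AngII replicate 6 and -3.93 in neferine replicate 1, and the next highest library of any group was at -5.40. AngII replicate 2, in which most members were low, had ratios within the range of the other AngII libraries for Tagln, Myh11, Cnn1 and Myl9 and the lowest AngII ratio for Des, at -6.91.

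**Figure D4:**
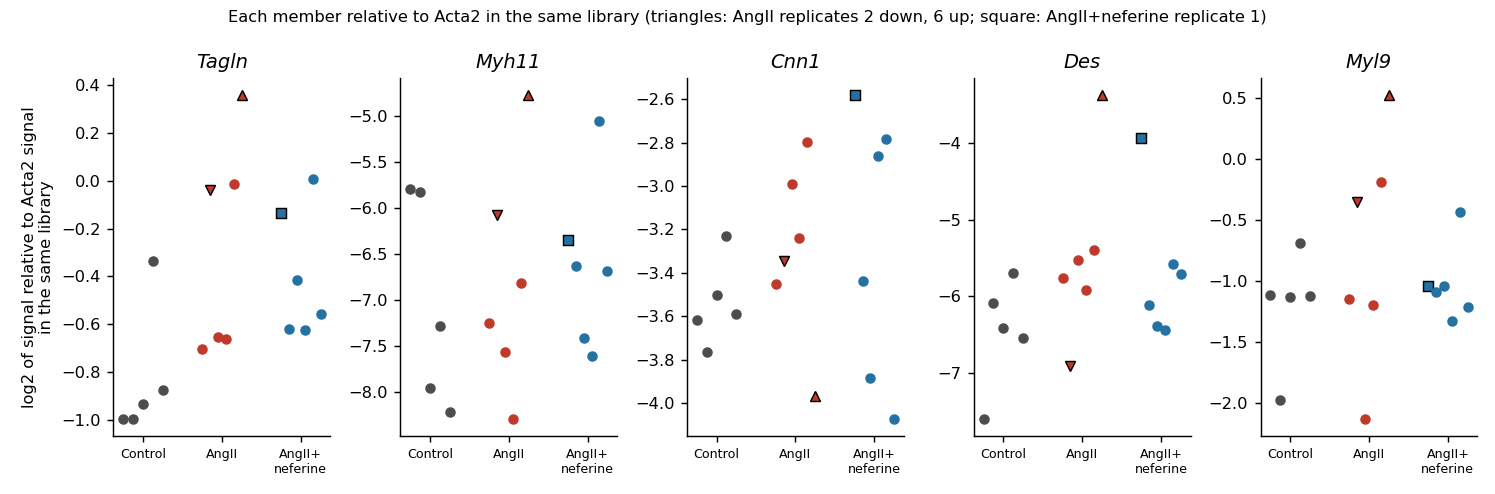
Log2 ratio of the signal of Tagln, Myh11, Cnn1, Des and Myl9 to that of Acta2 in the same library (vertical axes), 1 point per library in the 3 groups; triangles mark AngII replicates 2 (down) and 6 (up) and the square neferine replicate 1. For Tagln, 4 Control libraries between -0.9997 and -0.88 lie below all AngII and neferine libraries, and for Des the libraries AngII 6 and neferine 1 lie far above the rest.

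To find transcripts with a like pattern, the log2 values of the 7 members were centred and averaged in each library, and 29976 other transcripts were correlated with that mean over the 17 libraries. The highest Pearson r were 0.89 for ENSMUST00000061875 (Spearman rho 0.84) and 0.83 for ENSMUST00000137119 (rho 0.78). The lowest were -0.82 for ENSMUST00000055676 (rho -0.75) and -0.82 for ENSMUST00000043422 (rho -0.72). ENSMUST00000061875 ranged from 3.75 in AngII replicate 2 to 12.8 in AngII replicate 6, and ENSMUST00000055676 from 9.44 in AngII replicate 6 to 30.1 in AngII replicate 2. Without AngII replicate 2 and Control replicate 1, which lay farthest from the median of the mean, the 4 values were 0.78, 0.65, -0.70 and -0.64 over 15 libraries. They were picked as extremes among many, so they carry no p, and the files give no gene names for them. The mean holds Mylk, whose presence or absence moves it: the mean of Control replicate 1 was 0.83 with Mylk and 0.38 without it, and that of AngII replicate 6 was 0.47 and 0.84. With the mean over the other 6 members, chosen after the data were seen, the r of the 4 transcripts were 0.91, 0.69, -0.61 and -0.82, and in size they ranked 3, 375, 1041 and 39 among all compared.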

How the data were processed

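RNA of 17 abdominal aorta samples was depleted of rRNA and sequenced. The authors deposited, for each library, 1 signal value per transcript, linear and 0 or more; no file header names its unit. The submitters' processing notes mention limma alone. Aligner, quantification tool, annotation and genome build: not given in the sources used here. Column totals were 392615 to 569873. The files hold no counts, so the depth is unknown and no counting interval is given. At most 0.414% of transcripts had the same value above 0 in any pair of libraries, and none was treated as a duplicate.

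Log2(signal + 1) was modelled with limma 3.58.1 (R 4.3.3; trended, robust empirical Bayes), with all 17 libraries in 1 fit and a term per group. Tested were the transcripts listed in every file that reached a signal of 1 in 5 or more libraries. All 29983 entered the Benjamini-Hochberg adjustment. The script was run on simulated data with known changes, and its rate of recovery is not reported here. The 31 alternatives covered scale, pseudocount, filter, weights, model, replicate block, exact test and libraries left out. The likeness to the members' mean was also computed without Mylk, an alternative chosen after seeing the data.

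Symbols of the members come with the identifiers that define the set. RefSeq's table (GRCm38.p6) holds all 7 symbols but 0 of the 7 transcript identifiers. So 10 lists of other contractile, regulatory and cell type genes were not tested, and no sequences or coordinates are printed. Named were all 7 members and, by rule, the 2 transcripts with the highest and the 2 with the lowest (most negative) Pearson r with their mean. Members, lists and alternatives were chosen with earlier results of these data known.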

Additional observations from a re-analysis of the deposited data

Results flagged for a closer look

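Member signals, log2 ratios to Acta2 and the members' share of the signal made 39 groups of 5 or 6 values. In 6 cases 1 library lay far from the rest of its group, by its gap to the next value over the range (Dixon's rule). The rule flags about 5% of groups if values are independent and normally spread. The ratios here share Acta2 and the Mylk groups hold zeros, so 5% is no firm reference for the 6. Of the 6 cases, 2 concern Des in the same library. Des was at 208.4 in neferine replicate 1, and its log2 ratio to Acta2 there was -3.93. Myh11 was at 125.6 in AngII replicate 6. The members' share of the signal was 0.669% in AngII replicate 2. The log2 ratio of Tagln to Acta2 was -0.34 in Control replicate 5, and that of Myl9 to Acta2 was -0.44 in neferine replicate 5.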

How the results depend on the processing

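No member was called in any of the 3 comparisons under any of the 31 alternatives, the replicate block included, where 0 of 7 were called in each. Mylk could not be tested where a signal of at least 1 was required in all 17 libraries. Of 648 member values, 600 kept their direction and 48 did not, all of them values that did not pass, and the causes were not tested. Many of the 600 could not change. The filters, the fit of only the 2 groups, the fit without trend, the exact test and leaving out a library of the third group keep the difference itself. For AngII against Control, Tagln was -0.045 (log2) when libraries were scaled to a common total and -0.0095 with the replicate block, Myl9 was 0.023 when scaled by median ratio and 0.0042 with the block, and Cnn1 was 0.16 with library weights. Without the 3 libraries that stood apart, Cnn1 was 0.37 and Mylk 0.17. For neferine against AngII, quantile normalization gave 0.033 for Cnn1 and -0.039 for Mylk, and Mylk was -0.041 with a pseudocount of 5, -0.42 with weights and -0.45 without the 3 libraries. For neferine against Control, Des was -0.14 without them. With 1 library left out at a time, AngII against Control gave -0.043 to 0.34 for Tagln, -0.63 to 0.11 for Myh11, -0.44 to 0.094 for Cnn1, -1.30 to 0.24 for Mylk and -0.26 to 0.22 for Myl9. Neferine against AngII gave -0.43 to 0.035 for Acta2, -0.14 to 0.43 for Myh11, -0.41 to 0.12 for Cnn1, -0.92 to 0.065 for Des and -0.64 to 0.70 for Mylk. Neferine against Control gave -0.51 to 0.17 for Myh11, -0.14 to 0.29 for Des and -1.25 to 0.26 for Mylk. Same-numbered libraries did not deviate together (r of -0.15 to 0.06 in 16 pairs), and 1 of 17 libraries correlated best with its own number. The count over all transcripts moved more: 0 to 12 for AngII against Control, 0 to 15 for neferine against AngII, and 11 against 0 to 106 for neferine against Control. The last was 10 higher and 1 lower, 3 and 1 when scaled to a common total, 14 and 2 by median ratio, and 0 with the block.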
